A study of Mus musculus with 6 samples.

Results

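Amino acid transporters carry amino acids across the cell surface and the membranes of organelles, and 59 genes of these families were followed in mouse TH17-skewed T cells grown with or without glutamine. The members are the genes whose single symbol in the platform annotation begins with Slc1a, Slc3a, Slc6a, Slc7a, Slc36a, Slc38a or Slc43a and ends in a number. They are 59 of the 30702 genes tested: 7 of the SLC1 family, 2 of SLC3, 17 of SLC6, 15 of SLC7, 4 of SLC36, 11 of SLC38 and 3 of SLC43. A row that names Slc1a2 together with another gene was left out, as was Slc6a21, whose row carries an older name. Some members carry no amino acid: the SLC6 family also moves monoamines, creatine and taurine, and Slc43a3 moves purine nucleobases. The families are therefore taken by name and not by substrate.

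T cells import glutamine from the medium mainly through sodium-coupled carriers, of which Slc1a5 (ASCT2), Slc38a1 (SNAT1) and Slc38a2 (SNAT2) are the best known. Exchangers such as Slc7a5 (LAT1), which works only in a pair with the heavy chain Slc3a2 (CD98), can release glutamine from the cell while they bring in leucine and other large neutral amino acids. Further carriers sit in the lysosome, where amino acid content is read by the growth-controlling kinase complex mTORC1.

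Both groups held CD4 T cells sorted as CD25-negative, CD62L-positive and CD44-negative, stimulated through CD3 and CD28 for 3 days in IMDM with 10% FBS. The TH17-skewing mixture, the same for both, was IL-6 (20 ng/ml), IL-23 (20 ng/ml) and TGF-beta (1.25 ng/ml), with IFN-gamma, IL-4 and IL-12 neutralised by antibodies (10 ug/ml). The groups differed in whether glutamine was present. Each group held 3 Affymetrix arrays, titled as biological replicates. No strain, age or genotype is given in the labels, nor whether each replicate was a mouse of its own; the p-values rest on the spread between these arrays, which may be technical.

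Of the 10 CD4 T cell markers listed, 8 were measured, with a mean level per array of 14.60 to 14.76 log2 with glutamine and 14.84 to 15.00 log2 without it, and 2 of them, Cd3d and Cd5, rose. All 4 measured TH17 markers (Il17a, Il17f, Il23r and Ccr6) were lower without glutamine, and their mean level per array went from between 12.32 and 12.92 to between 8.17 and 8.54 log2. Of 21 measured markers of CD8 T cells, B cells, myeloid cells, dendritic cells, NK cells and erythroid cells, 14 had all 6 values below 4.68 log2, the median level of the genes tested. Among the others, Lyz2 fell by 1.66 log2, Klrk1 fell by 0.80 and Cd8b1 fell by 0.71, while Cd68 rose from 7.59 to 9.16 log2. The mean level per array of the 6 myeloid markers ran from 4.66 to 4.81 log2 with glutamine and from 4.67 to 4.78 without it. The part of these shifts in the results on transporters was not tested. The median row of an array read 4.18 to 4.21 log2 in the group with glutamine and 4.33 to 4.38 log2 in the group without. Rows above 16 log2 and the unequal medians mean that a rescaling after RMA cannot be told apart from RMA output, so every level and difference is on the scale as deposited. The median difference over all genes, without minus with glutamine, was 0.060 log2 as deposited. It became -0.048 after quantile normalization over all rows and -0.049 when each array was centred on its median.

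Without glutamine, a small number of transporter genes changed, in both directions, and the largest changes were of about 1 log2. The taurine transporter gene Slc6a6, the cystine importer gene Slc7a11, the exchanger genes Slc7a7 and Slc7a5 and the leucine facilitator genes Slc43a1 and Slc43a2 were lower. The SNAT-family gene Slc38a6, the lysosomal carrier and sensor gene Slc38a9, the heavy chain gene Slc3a1, the arginine transporter gene Slc7a1 and the glycine transporter gene Slc6a9 were higher. The genes of the main glutamine importers, Slc1a5, Slc38a1 and Slc38a2, did not pass the test. In a bulk sample, fewer cells of a type and less RNA per cell cannot be told apart.

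Of the 59 members, 11 passed at an adjusted p (limma, Benjamini-Hochberg over all genes) under 0.05, which is 18.6%, against 22.3% of all genes tested. The 5 that were higher are 8.47% of the members, against 9.30% of all genes, and the 6 that were lower are 10.2%, against 13.0%. As deposited, these shares lay near or below the background. When only genes above the median level were tested, 9 of 24 members (37.5%) were called, beside 42.4% of those genes. The median difference was 0.077 log2 over the members and 0.060 over all genes. The 3 values of one group lay wholly above or below those of the other in 27 members, 20 upward and 7 downward, and in 43.8% of all genes (25.0% upward and 18.8% downward). The scaling of the arrays changed the split. After quantile normalization over all rows 4 members were higher and 7 lower, beside 4.73% and 17.1% of all genes (21.8% in either direction). After centring 3 were higher and 7 lower, beside 5.12% and 17.6% (22.7%). Quantile normalization over the tested genes alone, an alternative chosen after seeing the data, gave 7 higher and 5 lower, beside 9.75% and 11.0% (20.8%). At an adjusted p under 0.01, 3 members (5.08%) were higher and 5 (8.47%) lower, beside 2.61% and 6.98% of all genes. In either direction this was 13.6% of the members and 9.59% of all genes, so the order of the 2 shares followed the threshold. With replicate 2 with glutamine, replicate 2 without it or replicate 3 without it left out, 9 members (15.3%) were called each time, beside 14.1%, 13.2% and 14.8% of all genes. The member share was below that of all genes with any other array left out. It was 15.3% beside 21.2% for replicate 3 with glutamine. For replicate 1 with glutamine and replicate 1 without it, it was 13.6% beside 16.5% and 17.2%. Leaving out with glutamine replicate 1, with glutamine replicate 2 or without glutamine replicate 1 left 3 members (5.08%) higher in each case. The shares of all genes called higher in these fits were 6.92%, 4.68% and 6.1%. Of the 11 called members, 8 kept their call and direction in every setting tried that held them: Slc6a6, Slc7a11, Slc7a7, Slc7a5, Slc43a1, Slc38a6, Slc38a9 and Slc3a1. Slc3a1 was not among the genes tested when those below the median level were left out.

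**Figure D1:**
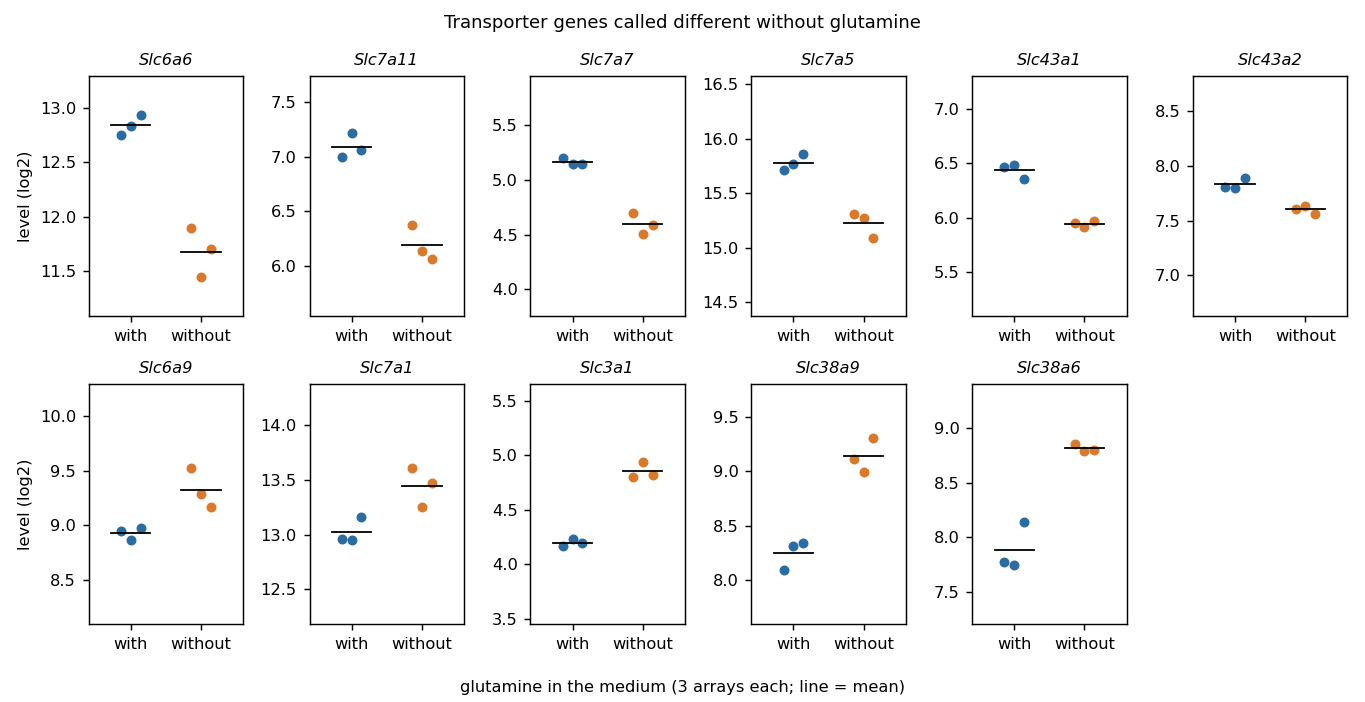
Levels (log2, vertical axis) of the 11 transporter genes called between cultures, each point 1 array and each line the mean of the 3 arrays of a group, blue with glutamine and orange without it; every panel spans the same log2 range. No panel shows overlapping groups, and Slc6a6 shows the widest gap, from 12.84 to 11.68 log2.

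Many members gave dim rows. In 34 of the 59 all 6 values lay below 4.68 log2, the median level of the genes tested, and none of these 34 passed the test, against 4.56% of the 14160 genes that lay as low. Their differences ran from -0.12 to 0.20 log2, with 29 above 0 and a median of 0.083, close to the median of 0.088 over all genes as low. After centring on array medians 20 of the 59 members changed the sign of their difference, and after quantile normalization over all rows 19 did, and none of those was called in either setting.

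**Figure D2:**
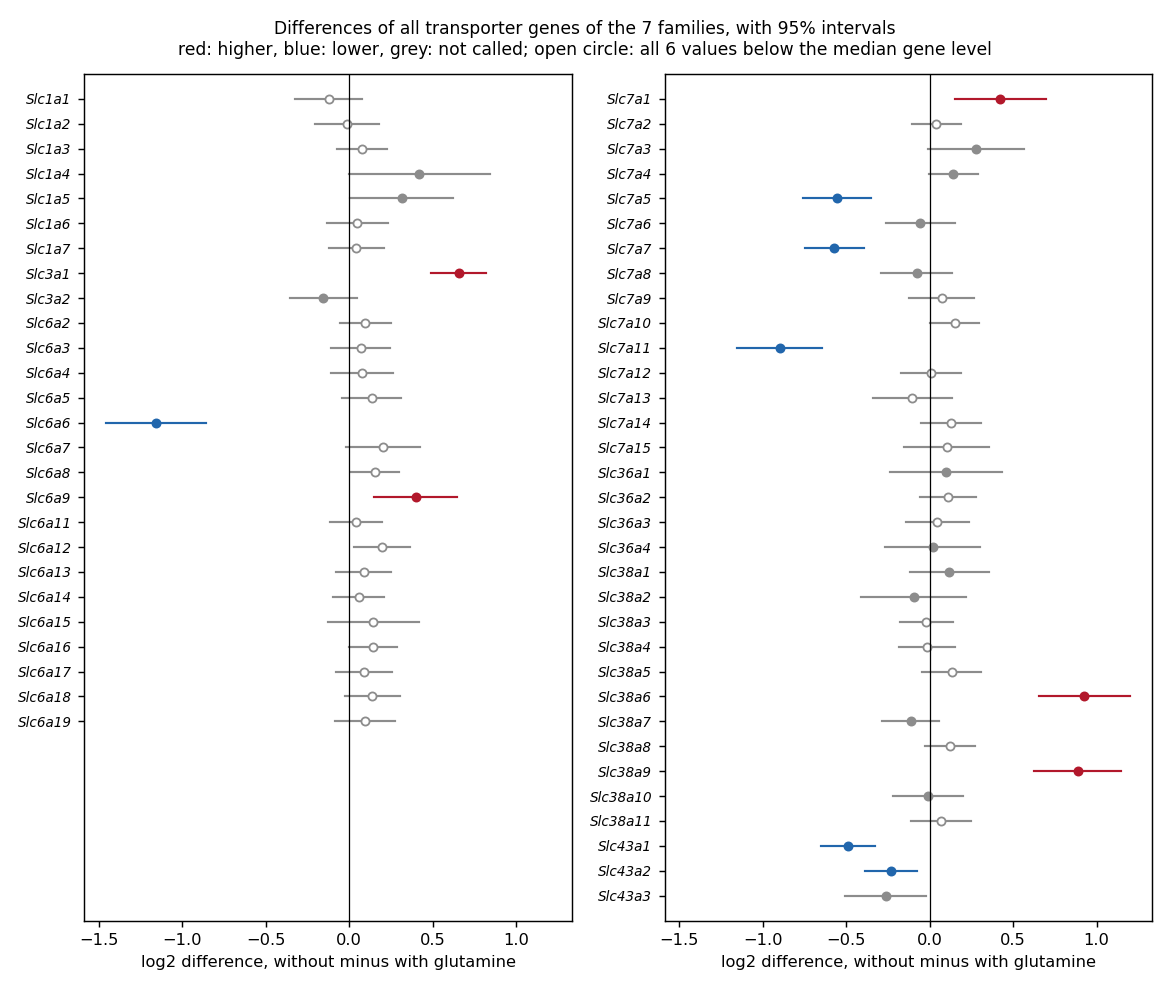
Log2 difference of each of the 59 members, without minus with glutamine, ordered by family, with the 95% interval from limma as a line; red marks genes called higher, blue genes called lower, grey genes not called, and open circles genes with all 6 values below 4.68 log2. The open circles crowd just above 0, and the called genes lie between -1.16 and 0.93.

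Among the glutamine carriers, a list drawn from general knowledge of the families, the importers of the cell surface showed no called change. Slc1a5 read 13.85, 13.88 and 14.09 log2 with glutamine and 14.50, 14.18 and 14.08 without it. The groups overlapped, since with glutamine replicate 3 lay above without glutamine replicate 3. Its difference was 0.31 log2 (95% interval 0.01 to 0.62, adjusted p = 0.132), and it was not called in any setting tried. The difference was 0.11 log2 after quantile normalization over all rows, 0.21 after centring and 0.19 with replicate 1 without glutamine, its highest value, left out. Slc38a1 read 14.01, 13.89 and 14.12 log2 with glutamine and 14.27, 14.03 and 14.06 without it, and the groups overlapped. Its interval ran from -0.12 to 0.35 log2 (difference 0.12, adjusted p = 0.431), so a change of 1 log2 lay outside it. Slc38a2, the carrier classically induced when amino acids run short, read 12.97, 13.00 and 13.19 log2 with glutamine and 13.19, 12.73 and 12.95 without it. The highest and the lowest of its 6 values were both from cultures without glutamine, and the interval ran from -0.41 to 0.22 log2 (difference -0.10, adjusted p = 0.629). The differences of Slc38a1 and Slc38a2 each changed sign under 1 scaling, to -0.060 for Slc38a1 after quantile normalization over all rows and to 0.025 for Slc38a2 after quantile normalization over the tested genes. The 4 other importers listed, Slc38a3, Slc38a5, Slc6a14 and Slc6a19, lay between 3.07 and 3.87 log2 on every array, and the lowest adjusted p among them was 0.239.

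Of the 4 exchangers, 2 fell and 2 did not pass. By comparison 13.0% of all genes were called lower. Among genes with a mean above the median level, as in all 4 here, it was 26.6%. Slc7a5, the light chain of LAT1, read 15.71, 15.77 and 15.86 log2 with glutamine and 15.31, 15.27 and 15.09 without it, and the groups lay apart. It fell by 0.55 ± 0.09 log2 (SE, adjusted p = 0.00608). Slc3a2, the heavy chain that LAT1, xCT and the y+L exchangers need to reach the surface, read 15.29, 15.28 and 15.15 log2 with glutamine and 15.18, 15.12 and 14.97 without it, and the groups overlapped. Its difference was -0.15 log2 (95% interval -0.35 to 0.04, adjusted p = 0.228). After quantile normalization over all rows its difference was -0.43 log2 and passed (adjusted p = 0.00797). In that setting Slc7a5 fell by 0.84 log2. Both genes read close to 16 log2, the range of a 16-bit scanner, which 695 to 887 rows per array exceeded, and whether signal at this level is compressed was not tested.

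The y+L exchangers trade cationic amino acids inside the cell for neutral ones such as glutamine and leucine outside it. Slc7a7, the light chain of y+LAT1, read 5.20, 5.15 and 5.15 log2 with glutamine and 4.69, 4.51 and 4.58 without it. The groups lay apart, and the fall was 0.57 ± 0.07 log2 (SE, adjusted p = 0.00314). The values without glutamine were near the median gene level of 4.68 log2. Slc7a6, which encodes the y+LAT2 light chain, read 10.09, 9.94 and 9.99 log2 with glutamine and 10.07, 9.84 and 9.95 without it, and the groups overlapped (95% interval -0.26 to 0.15, adjusted p = 0.672). Slc7a8, which encodes LAT2, lay between 4.60 and 4.88 log2 on all arrays and did not pass (difference -0.08, adjusted p = 0.561).

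In the lysosome, Slc38a9 exports leucine and glutamine and acts as an arginine sensor for mTORC1. It read 8.09, 8.31 and 8.34 log2 with glutamine and 9.11, 8.997 and 9.30 without it, and the lowest value without glutamine stood well above the highest with it. The rise was 0.89 ± 0.11 log2 (SE, adjusted p = 0.00262). Slc38a7, another lysosomal exporter of glutamine and asparagine, read 7.08, 7.08 and 7.16 log2 with glutamine and 7.08, 6.95 and 6.95 without it, and the groups met (95% interval -0.28 to 0.05, adjusted p = 0.287). In all, 3 of the 13 glutamine carriers were called, 2 lower and 1 higher, beside the 22.3% of all genes. The same count was found in every setting tried.

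**Figure D3:**
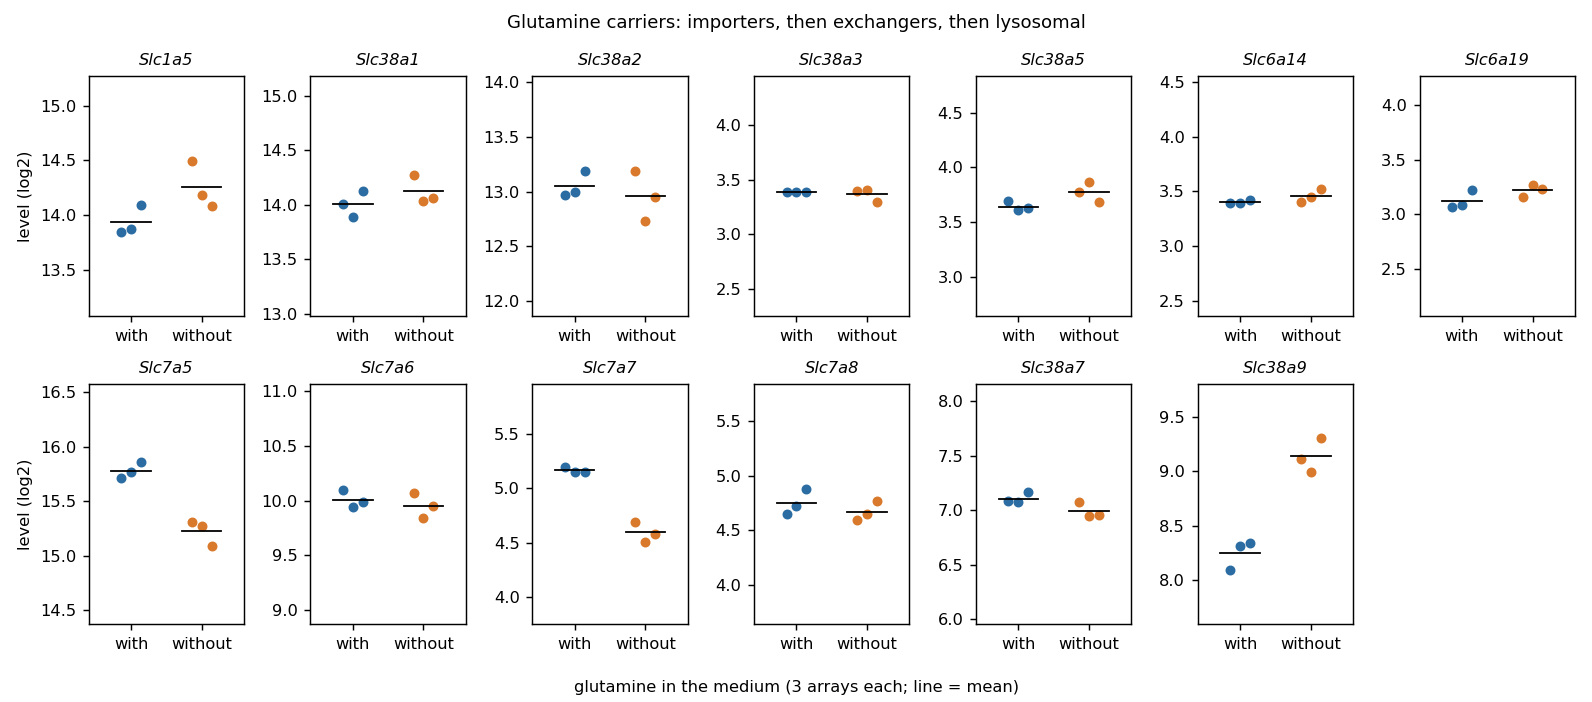
Levels (log2, vertical axis) of the 13 glutamine carriers, each point 1 array and each line a group mean, blue with glutamine and orange without it; the first 7 panels are sodium-coupled importers, the next 4 exchangers and the last 2 lysosomal carriers. Slc7a5, Slc7a7 and Slc38a9 are the panels whose groups lie apart.

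Slc7a11 encodes the light chain of xCT, which brings in cystine, a building block of glutathione, and pays for it with glutamate from inside the cell. It read 6.997, 7.22 and 7.06 log2 with glutamine and 6.37, 6.14 and 6.07 without it, and every value without glutamine lay below every value with it. The fall was 0.90 log2, from 7.09 ± 0.11 to 6.19 ± 0.16 (SD, n = 3, adjusted p = 0.00223 by limma). The glutamate carriers of the SLC1 family, which remove glutamate from around neurons and epithelia, gave dim rows: Slc1a1, Slc1a2, Slc1a3, Slc1a6 and Slc1a7 lay between 3.07 and 3.89 log2 and none was called. Slc1a4 (ASCT1), a carrier of alanine, serine and cysteine, read 9.70, 9.93 and 9.53 log2 with glutamine and 10.49, 10.06 and 9.87 without it. The groups overlapped by a narrow margin, and the difference of 0.42 log2 missed the threshold (95% interval -0.003 to 0.84, adjusted p = 0.141). It passed after quantile normalization over the tested genes (0.60 log2, adjusted p = 0.0333) and was 0.25 log2 with replicate 1 without glutamine left out.

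The promoter windows of Slc7a11, Slc7a7 and Slc1a4 are printed because they were the members whose windows held the amino acid response element, to which the stress factor ATF4 binds with C/EBP partners. Those of Slc38a9 and Slc38a6, the largest rises, are printed as windows without it. Sequences are from RefSeq, build GRCm38.p6, 5′ to 3′ on the strand of the gene, ending at or just after the transcription start, with the motif TGATGNAA or its reverse complement in capitals.

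Slc7a11 (chr3:50443614-50443723, minus strand): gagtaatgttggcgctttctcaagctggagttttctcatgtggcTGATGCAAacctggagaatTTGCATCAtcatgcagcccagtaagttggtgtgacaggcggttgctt

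Slc7a7 (chr14:54417938-54418094, minus strand): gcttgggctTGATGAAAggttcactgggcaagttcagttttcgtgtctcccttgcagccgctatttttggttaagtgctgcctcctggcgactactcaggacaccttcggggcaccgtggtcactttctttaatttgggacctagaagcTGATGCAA

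Slc1a4 (chr11:20332710-20332813, minus strand): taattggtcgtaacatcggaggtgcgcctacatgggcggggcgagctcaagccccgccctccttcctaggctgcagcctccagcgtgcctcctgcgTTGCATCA

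Slc38a9 (chr13:112660666-112660765, plus strand): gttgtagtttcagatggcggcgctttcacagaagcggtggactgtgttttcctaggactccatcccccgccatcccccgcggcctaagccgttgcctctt

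Slc38a6 (chr12:73286748-73286847, plus strand): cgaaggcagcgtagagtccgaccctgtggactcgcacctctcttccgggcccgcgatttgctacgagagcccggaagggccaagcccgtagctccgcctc

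Windows run from 250 bases before to 50 bases after a start, and 42 of the 59 members had at least 1, for 63 windows in all. The remaining members, among them Slc7a5, Slc6a6, Slc1a5 and Slc38a1, had no window and were not searched. The motif was searched on both strands and found in 4 of the 63 windows, or 6.35%, from 3 members. It stood in 3.97% of all 32851 windows of that length. In Slc7a11 the matches begin 66 and 47 bases before the start, on opposite strands. In Slc7a7 they begin 141 bases and 1 base before it, and in Slc1a4 the match begins 4 bases before it and runs across it. The Slc7a7 match at 1 base also lies 243 bases before another start of the gene. That site is thus counted in more than 1 of the 4 windows. The E-box CACGTG, a palindrome bound by MYC and the lysosomal regulator TFEB among others, stood in 9 of the 63 windows, or 14.3%, and in 7.15% of all windows. Its windows belong to 9 members, among them Slc43a1, which fell, and Slc38a7 and Slc36a1, which did not pass; Slc36a1 holds it at 31 and at 3 bases before its start. A match is a description of letters and shows no binding. Of the members whose windows held the response element, 2 fell and 1 did not pass. Whether ATF4 had a part in this was not tested. Among 34 genes of amino acid stress and transporter control, 5 were higher, Sesn2 and Atf5 among them, and 12 lower, Atf4 among them. These counts, 14.7% and 35.3% of the 34, stand beside 9.30% and 13.0% of all genes. Among genes with a mean above the median level, as in all 34, the shares were 15.8% higher and 26.6% lower. Atf4 itself, named after its values were seen, fell by 0.46 log2, from 11.85 ± 0.10 to 11.40 ± 0.13 (SD, n = 3, adjusted p = 0.0178 by limma), and each of 4 arrays ended its call when left out: replicates 1 and 2 with glutamine (0.0532 and 0.0567) and replicates 2 and 3 without it (0.06 and 0.0516).

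Cationic amino acids such as arginine enter through the CAT transporters. Slc7a1 (CAT1) read 12.96, 12.95 and 13.16 log2 with glutamine and 13.61, 13.25 and 13.47 without it, with no overlap. The rise was 0.42 log2 (SE 0.11, adjusted p = 0.0409). The call was lost when replicate 1 (adjusted p = 0.11) or 2 (0.123) with glutamine or replicate 1 (0.101) or 3 (0.108) without it was left out, and after quantile normalization over all rows (0.11) and centring (0.125). Slc7a3 (CAT3) read 11.28, 11.30 and 11.21 log2 with glutamine and 11.78, 11.53 and 11.32 without it. These groups lay apart too, but the difference of 0.28 log2 did not pass (95% interval -0.01 to 0.57, adjusted p = 0.149), except after quantile normalization over the tested genes (0.46 log2, adjusted p = 0.0178). It was 0.17 log2 after centring and 0.16 with replicate 1 without glutamine left out. Slc7a2 (CAT2) was dim, at 4.13 log2 with glutamine and 4.17 without it.

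Within the SLC6 family, 1 of 17 members fell and 1 rose, beside 13.0% and 9.30% of all genes. Slc6a6, the transporter of taurine, read 12.75, 12.83 and 12.94 log2 with glutamine and 11.89, 11.44 and 11.70 without it. This was the largest change of any member, a fall of 1.16 log2 from 12.84 ± 0.09 to 11.68 ± 0.23 (SD, n = 3, adjusted p = 0.00163 by limma), and it kept its call in every setting tried, between -1.27 and -1.04 log2. Slc6a9 (GLYT1), a glycine transporter, read 8.94, 8.86 and 8.98 log2 with glutamine and 9.52, 9.28 and 9.17 without it on its brighter row. The rise of 0.40 log2 passed (adjusted p = 0.037) but was lost when any single array other than replicate 3 without glutamine was dropped (adjusted p from 0.0609 to 0.114) and after centring (0.101). With replicate 1 without glutamine dropped, the highest value, it was 0.30 log2. A second row of Slc6a9 moved the same way, from 4.45 ± 0.20 to 5.12 ± 0.33 log2 (SD, n = 3, adjusted p = 0.0404 by limma over all rows). Slc6a8, the creatine transporter, read 4.41, 4.45 and 4.43 log2 with glutamine and 4.56, 4.57 and 4.62 without it, all below the median gene level, and did not pass (adjusted p = 0.121). The other 14 members of the family, carriers of GABA, monoamines, proline and neutral amino acids, lay between 3.03 and 4.19 log2, with differences of 0.04 to 0.20 log2 and none called.

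The SLC43 family holds LAT3 and LAT4, sodium-independent facilitators of branched-chain amino acids and phenylalanine. Of its 3 members 2 fell, beside 13.0% of all genes called lower. In all 3 the values without glutamine lay below those with it, as they did in 18.8% of all genes. Slc43a1 (LAT3) read 6.47, 6.48 and 6.36 log2 with glutamine and 5.96, 5.92 and 5.97 without it, a fall of 0.49 ± 0.07 log2 (SE, adjusted p = 0.00411). Slc43a2 (LAT4) read 7.81, 7.80 and 7.89 log2 with glutamine and 7.61, 7.64 and 7.56 without it. Its fall of 0.23 log2 passed narrowly (adjusted p = 0.0482) and was lost when any of the 6 arrays was left out (adjusted p 0.0949 to 0.126). It was -0.05 log2 after quantile normalization over the tested genes. Slc43a3 read 13.70, 13.44 and 13.78 log2 with glutamine and 13.41, 13.36 and 13.36 without it. Its difference of -0.26 log2 did not pass (adjusted p = 0.114), but passed after centring (-0.37 log2, adjusted p = 0.0393) and when replicate 2 with glutamine, its lowest value in that group, was dropped (-0.36 log2, adjusted p = 0.0362).

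**Figure D4:**
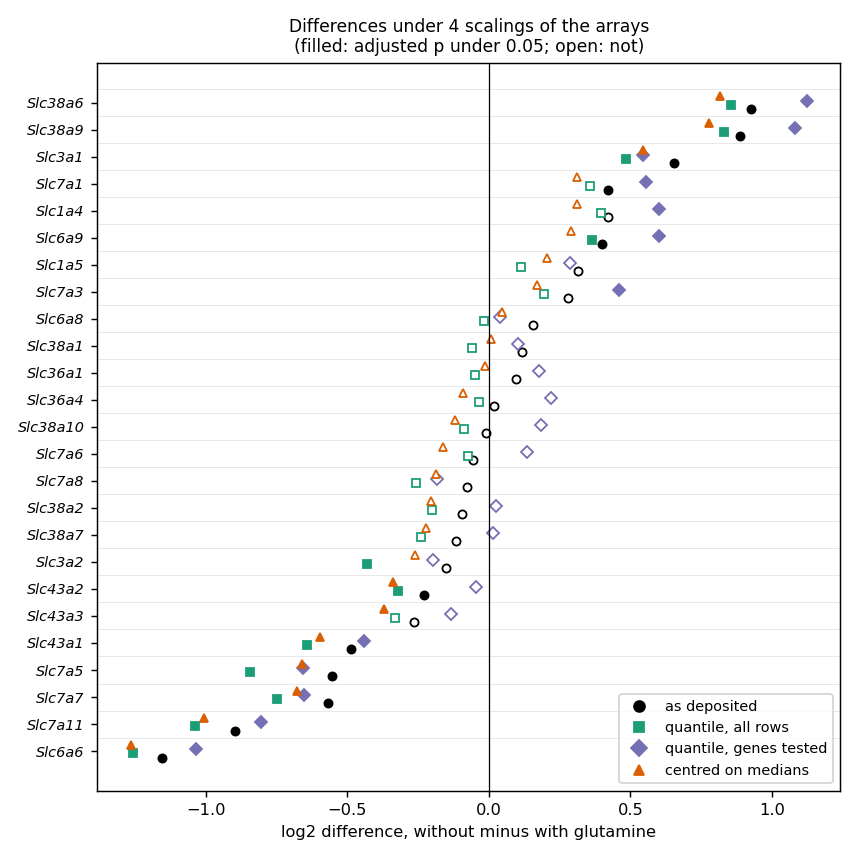
Log2 difference, without minus with glutamine, of 25 transporter genes under 4 scalings of the arrays: as deposited (circles), quantile normalization over all rows (squares) or over the tested genes (diamonds), and centring on array medians (triangles); filled symbols passed an adjusted p of 0.05. The 3 rows at the top and the 5 at the bottom are filled under every scaling, and Slc6a8, Slc38a1, Slc36a1, Slc36a4, Slc38a10, Slc7a6, Slc38a2 and Slc38a7 have symbols on both sides of 0.

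Outside the genes listed as glutamine carriers, the SLC38 family held the other large rise. Slc38a6 (SNAT6), a member with a less settled substrate range, read 7.77, 7.75 and 8.14 log2 with glutamine and 8.85, 8.79 and 8.80 without it. The rise was 0.93 ± 0.11 log2 (SE, adjusted p = 0.00272), and the values without glutamine lay close together (SD 0.04). Slc38a10 read 8.40, 8.21 and 8.26 log2 with glutamine and 8.37, 8.15 and 8.31 without it, a difference of -0.01 log2 (95% interval -0.22 to 0.20, adjusted p = 0.931). The other members of the family, Slc38a3, Slc38a4, Slc38a5, Slc38a8 and Slc38a11, stayed between 3.22 and 3.99 log2. In RefSeq Slc38a1, Slc38a2 and Slc38a4 are consecutive protein coding genes on chromosome 15. Slc38a4 lay below the median gene level on every array, unlike its neighbours, and none of these genes was called.

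Slc3a1 encodes rBAT, the heavy chain of the kidney cystine and cationic amino acid exchanger whose light chain is Slc7a9. Its row read 4.16, 4.23 and 4.19 log2 with glutamine, below the median gene level, and 4.80, 4.94 and 4.82 without it, above that level. The rise was 0.65 ± 0.07 log2 (SE, adjusted p = 0.00154), the lowest adjusted p of any member. The row of its partner Slc7a9 was dim, at 3.15 log2 with glutamine and 3.22 without it.

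The SLC36 family carries neutral amino acids, in part with protons, on the cell surface and out of lysosomes. None of its 4 members passed, beside 22.3% of all genes. Slc36a1 (PAT1) read 6.43, 6.27 and 6.74 log2 with glutamine and 6.43, 6.56 and 6.75 without it (95% interval of the difference -0.24 to 0.43, adjusted p = 0.649). Slc36a4 (PAT4) read 8.76, 8.77 and 8.71 log2 with glutamine and 8.999, 8.76 and 8.54 without it. Its values without glutamine reached both above and below all those with it, and the interval ran from -0.27 to 0.30 log2 (adjusted p = 0.922). The differences of both genes changed sign after quantile normalization over all rows and after centring. Slc36a2 and Slc36a3 lay between 3.46 and 3.83 log2.

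Of the rest of the SLC7 family, Slc7a10, Slc7a12, Slc7a13, Slc7a14 and Slc7a15 had all 6 values below the median gene level. Slc7a4 lay just above that level on every array, between 4.95 and 5.15 log2, and did not pass (difference 0.14, adjusted p = 0.153). Its sign turned after quantile normalization over all rows (-0.043). Over these 6 members with Slc7a2 and Slc7a9, the lowest adjusted p was 0.13.

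Amino acid carriers outside these families changed in both directions. Of 26 measured, 3 were higher and 9 lower, with a median difference of 0.032 log2, beside 9.30% and 13.0% of all genes. Slc25a13, the mitochondrial aspartate-glutamate carrier citrin, fell from 9.64 ± 0.08 to 7.08 ± 0.33 log2 (SD, n = 3). Slc17a6, a vesicular glutamate transporter, fell by 1.81 log2 and Slc15a3, a lysosomal carrier of peptides and histidine, fell by 1.74. Slc16a10 (TAT1), a facilitator of aromatic amino acids, rose from 8.96 ± 0.16 to 10.12 ± 0.26 log2 (SD, n = 3). All 4 passed, with an adjusted p (limma) of at most 0.00375. With replicate 1 without glutamine left out, and also after quantile normalization over the tested genes, 5 of the 26 were higher and 7 lower.

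Among 34 genes of amino acid stress and transporter control, 5 were higher and 12 lower, with a median difference of -0.17 log2. In all 17 of 34 passed, beside 22.3% of all genes and 42.4% of genes above the median level, a level that all 34 reached. Sesn2, a stress-induced leucine sensor that restrains mTORC1, rose from 10.25 ± 0.09 to 12.13 ± 0.33 log2 (SD, n = 3), and the transcription factor gene Atf5 rose by 1.46. Castor1, an arginine sensor of the same pathway, fell by 1.80 log2, and the lipoprotein receptor gene Vldlr fell by 2.44. Each of these 4 passed in every setting tried, with adjusted p (limma) of at most 0.029. The count of lower genes depended on single arrays: it was 8 or 7 when replicate 1 or 2 with glutamine was left out, and 7 or 8 when replicate 2 or 3 without it was. Calls over all genes dropped in these fits too, with 9.63%, 9.47%, 8.68% and 9.34% lower, beside 13.0% with all arrays. The count of higher genes dropped to 3 when replicate 2 without glutamine was left out, where 4.54% of all genes were higher, beside 9.3% with all arrays.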

How the data were processed

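Each deposited value is a row's level on 1 array in log2 units. RMA and Transcriptome Analysis Console 4.0 are named in the submitters' processing notes, and the options and genome build were not given in the sources used here, nor was any further rescaling. All 6 columns were used (0 columns of other samples). Of 65956 rows, 31258 named 1 gene, 1492 several, and 33206 were unnamed here. Symbols were updated through RefSeq GRCm38.p6, and the row with the highest mean was used per symbol, leaving 30702 genes with no filter. limma 3.58.1 (lmFit, eBayes, two-sided, no covariate) in R 4.3.3 compared 3 arrays without against 3 with glutamine, with Benjamini-Hochberg adjustment over all genes. The fit was tested on simulated data in which 200 of 30702 genes were changed, 50 for each size. It called 26% of changes of 0.5 log2, 70% of 1 log2, 96% of 2 log2 and 100% of 3 log2, with 5 false calls. In the data themselves 6843 genes were called, which alters the Benjamini-Hochberg cutoff. These rates therefore do not measure the power of the comparison reported here. Members, lists, motifs and the rule for named genes (all members; up to 4 of each context list by size) were chosen with earlier results of these data known. The number of arrays limits the precision. Alternatives were other scalings, a filter on dim genes, other limma settings, a replicate block and leaving out each array. Figures were drawn with matplotlib 3.10.9.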

Additional observations from a re-analysis of the deposited data

How the results depend on the processing

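For the 25 members whose differences are plotted by scaling, 303 of 348 values under other settings kept their direction and their side of the threshold. Part of this was fixed in advance. The replicate block, the trend and robust fit and the filter on dim genes leave each difference unchanged. Averaging the rows of a gene could alter only Slc6a9, the only member with more than 1 row. Over all 59 members, 20 differences changed sign after centring, 19 after quantile normalization over all rows and 16 over the tested genes. The count of genes called over the whole table was 6843, split 41.7% higher; 21.7% of calls were higher after quantile normalization over all rows, 22.5% after centring and 46.9% after quantile normalization over the tested genes. At an adjusted p under 0.01, 2943 genes were called, 3 members higher and 5 lower; after centring 3 members were higher. Leaving out 1 array at a time gave 4060 to 6501 genes called (4344 without with glutamine replicate 2, 4060 without without glutamine replicate 2, 4558 without without glutamine replicate 3), 3 to 4 members higher and 5 to 6 lower. Among the 25, differences that changed sign, none of them called, were -0.048 and -0.013 for Slc36a1, -0.036 and -0.090 for Slc36a4, after quantile normalization over all rows and centring, -0.060 for Slc38a1 and -0.017 for Slc6a8 after the former, and 0.025 for Slc38a2, 0.016 for Slc38a7, 0.183 for Slc38a10 and 0.133 for Slc7a6 after quantile normalization over the tested genes. With 1 array left out, Slc36a1 ranged from -0.008 to 0.224, Slc36a4 from -0.097 to 0.131, Slc38a2 from -0.214 to 0.019, Slc38a10 from -0.058 to 0.048 and Slc7a6 from -0.114 to 0.002. The cause was not tested. Same-numbered arrays did not deviate together (correlations 0.066, -0.234 and 0.276 over genes); the replicate block gave 6292 genes, 4 members higher and 5 lower, with Slc43a2 (adjusted p = 0.105) and Slc6a9 (0.0549) no longer called. Slc43a2 also missed the threshold among genes above the median level (0.0571) and with trend and robust (0.076), as did Slc7a1 (0.0568) with the latter.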
